A study of Mus musculus with 2 samples.

Results

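The genes described here are 10 WNT feedback targets and secreted or membrane inhibitors, Axin2, Nkd1, Nkd2, Sp5, Notum, Znrf3, Rnf43, Wif1, Apcdd1 and Sfrp4, out of 32285 genes in the matrices. They were chosen as a list of genes by their role, with earlier results of these data known. The genes were read in 2 single-cell RNA sequencing libraries of the mouse melanocyte lineage. The early-anagen library held melanocyte stem cells (McSCs) from back skin in anagen II, 4 days after depilation at 8 weeks of age. The bulb library held mature melanocytes from microdissected hair bulbs in anagen VI at 5 weeks of age, without depilation. All mice carried Dct-rtTA and tetO-H2B-GFP and received doxycycline chow for 4 days. The Dct promoter therefore drove the GFP by which the cells were sorted, and the cells of 4 mice were combined in each library. Early-anagen skin was dissociated with trypsin, and bulbs with EDTA, collagenase and dispase. The droplet kit had chemistry version 3 in early anagen, and version 2 was used for the bulb. As each condition was a single library, the conditions could not be tested against each other, and condition cannot be told apart from age, depilation, dissociation, chemistry and depth.

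The cells read were those with at least 1 UMI (a counted transcript molecule) of Dct, fewer than 3 UMIs of Krt10 and Krt14 together and less than 5% mitochondrial UMIs, with more than 10000 UMIs for early anagen and more than 5000 for the bulb. This left 2785 of 11010 early-anagen barcodes, with a median of 24528 UMIs, and 3734 of 4327 bulb barcodes, with a median of 14286.5 UMIs. The libraries shared 1 barcode, and none among the cells read. All 8 melanocyte markers were above 10 CPM (UMIs scaled to the same total in each library, as counts per 1000000) in both libraries, and their summed level was 24759 CPM in early anagen and 66772 CPM in the bulb. The dermal papilla markers summed to 297 and 599 CPM, of which Enpp2 made up 270 and 587 CPM and Trps1 25.1 and 10.6 CPM, while Corin and Alx4 were at 0 in both. The 8 fibroblast markers summed to 1.33 and 0.823 CPM. The 8 epidermal markers summed to 55.4 CPM in early anagen and 27.0 CPM in the bulb. Hair matrix and shaft markers, 7 of which were in the matrices, went the other way, from 2.77 to 10.9 CPM.

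WNT ligands bind Frizzled and LRP receptors, which halts the destruction of β-catenin, and β-catenin then acts in the nucleus with TCF and LEF factors. Many of the genes it switches on restrain the same pathway, so their transcripts are widely read as a sign of WNT signalling. In the hair follicle, WNT signalling from the epithelium drives the differentiation of melanocytes. The 10 genes act at different steps. Axin2, Nkd1 and Nkd2 act inside the cell and Sp5 in the nucleus, Znrf3 and Rnf43 remove receptors from the cell surface, Apcdd1 sits at the membrane, and Notum, Wif1 and Sfrp4 are secreted.

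Promoter sequences were looked up for all 10 members. They are printed for the intracellular and nuclear ones only. A RefSeq window (GRCm38.p6) was found for 6 of the 10 genes. The 250 bases before the start site are given for the 4 intracellular and nuclear members, whose windows held no annotated exon. The letters CTTTG or, on the other strand, CAAAG, the core of the TCF and LEF motif, are in capitals. Sp5 (chr2:70474673-70474922, plus strand), Axin2 (chr11:108920099-108920348, plus strand), Nkd1 (chr8:88527383-88527632, plus strand, within the annotated span of the gene) and Nkd2 (chr13:73847632-73847881, minus strand) read, 5′ to 3′:
Sp5: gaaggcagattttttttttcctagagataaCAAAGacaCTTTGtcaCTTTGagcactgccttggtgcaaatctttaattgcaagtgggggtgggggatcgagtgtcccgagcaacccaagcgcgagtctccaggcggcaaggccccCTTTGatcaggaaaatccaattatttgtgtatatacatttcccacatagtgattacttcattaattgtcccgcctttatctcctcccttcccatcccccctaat
Axin2: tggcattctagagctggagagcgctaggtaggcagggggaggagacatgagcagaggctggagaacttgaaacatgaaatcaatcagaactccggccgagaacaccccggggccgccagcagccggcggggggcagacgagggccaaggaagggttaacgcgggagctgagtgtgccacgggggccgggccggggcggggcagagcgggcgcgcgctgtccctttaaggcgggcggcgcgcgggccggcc
Nkd1: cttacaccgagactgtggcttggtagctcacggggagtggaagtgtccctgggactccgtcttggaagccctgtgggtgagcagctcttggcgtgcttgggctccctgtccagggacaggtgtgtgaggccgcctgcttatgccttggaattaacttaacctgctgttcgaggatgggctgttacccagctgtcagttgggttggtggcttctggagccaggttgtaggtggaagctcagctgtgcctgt
Nkd2: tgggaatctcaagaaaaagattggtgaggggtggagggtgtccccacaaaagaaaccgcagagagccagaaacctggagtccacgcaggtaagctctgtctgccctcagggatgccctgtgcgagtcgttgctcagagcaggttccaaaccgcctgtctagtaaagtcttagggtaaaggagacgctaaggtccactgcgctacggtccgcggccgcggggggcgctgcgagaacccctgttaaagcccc

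The Sp5 window held 4 matches on either strand, the first letters of which lie 220, 212, 204 and 104 bases before the start, and the match nearest the start reads CTTTGAT. Of 32851 RefSeq windows of the same length, 48.6% held at least 1 CTTTG, 0.773% held at least 4, and 3.21% held CTTTGAT. No match was found in the Axin2, Nkd1 and Nkd2 windows, which says only that these letters are not in those bases. Of the windows not printed, that of Wif1, which overlaps an exon of the gene, held 1 match, 161 bases before the start. Those of Rnf43 held none.

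The 10 genes together were at 140 CPM in the early-anagen library and 1160 CPM in the bulb library, and 2 genes made up most of the difference. Sfrp4 and Nkd1 supplied 28.7% of the list's UMIs in early anagen and 89.3% in the bulb. The other 8 genes summed to 99.8 CPM in early anagen and 124 CPM in the bulb, a log2 ratio of 0.31 (95% interval, 0.26 to 0.36). Here and below, intervals are exact Poisson or Clopper-Pearson intervals and cover counting error only, not the spread between mice. Levels are of 3′ tags, so transcript length does not enter, but tags of different genes can be caught with different efficiency.

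Of the 10 genes, 9 had at least 30 UMIs over both libraries, the limit for reading a ratio, and Rnf43 did not. In the bulb, 6 were at least 2-fold higher, where 14.9% of 13276 genes were, and 1 was at least 2-fold lower, where 35.8% of genes were. Notum, Wif1 and Apcdd1 reached the limit through their bulb UMIs alone, so their ratios could hardly have fallen on the other side. The median log2 ratio of the 9 genes with UMIs in both libraries was 3.19, which is Notum's own ratio, beside −0.42 over all genes, whose quartiles were −1.59 and 0.52. The median was 0.66 over the 6 genes with at least 30 UMIs in each library. With edgeR's trimmed mean scaling the median over all genes moved to −0.10.

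**Figure D1:**
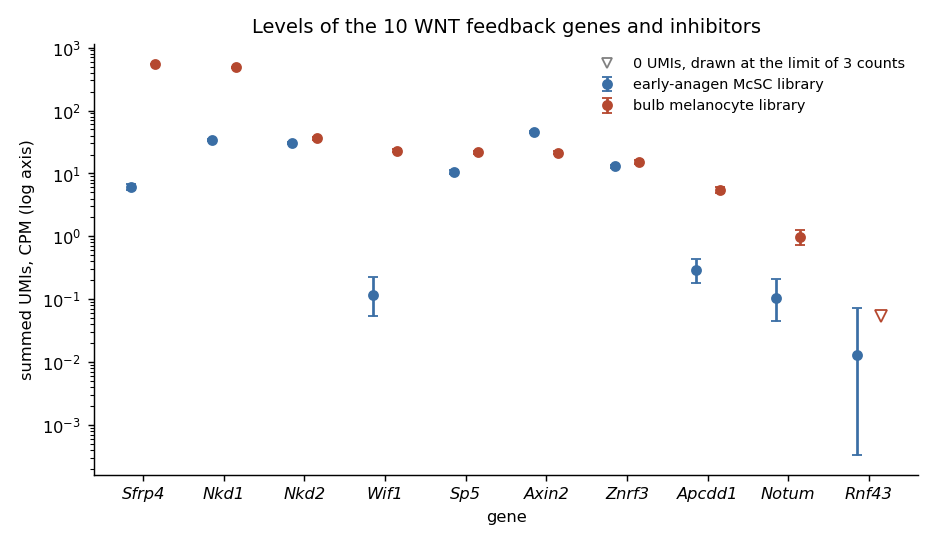
Summed UMIs of each gene as CPM on a log axis, in the early-anagen McSC library (blue) and the bulb melanocyte library (red), with exact 95% Poisson intervals. Sfrp4 and Nkd1 reached 551 and 486 CPM in the bulb, Axin2 is the gene whose early-anagen point lies clearly above its bulb point, and Rnf43 with 0 bulb UMIs is drawn at the limit of 3 counts.

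Among the intracellular members, Axin2, a scaffold of the complex that destroys β-catenin, was the most abundant of the 10 genes in early anagen and the one that was lower in the bulb. Axin2 (chr11:108920349-108950783, plus strand, GRCm38) had 3418 UMIs in early anagen, 45.1 CPM (43.6 to 46.7), and 1196 UMIs in the bulb, 21.4 CPM (20.2 to 22.7). The log2 ratio was −1.08 (−1.17 to −0.98), 2.11-fold lower. With edgeR's trimmed mean scaling it was −0.76, short of 2-fold, and relative to the median of all genes it was −0.66. The highest count in a single cell was 14 UMIs in early anagen and 4 in the bulb. Axin2 was also present at 14.8 CPM (10.8 to 19.7) in 81 early-anagen cells with more keratin than Dct UMIs, below the level of the McSCs.

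Nkd1 and Nkd2, paralogues that bind Dishevelled and dampen its signal, behaved differently from each other. Nkd1 (chr8:88521354-88594884, plus strand) had 2583 UMIs and 34.1 CPM (32.8 to 35.5) in early anagen, and 27143 UMIs and 486 CPM (480 to 492) in the bulb. The log2 ratio was 3.83 (3.77 to 3.89), 14.2-fold higher, and 98.8% of all genes read had a lower ratio. Nkd2 (chr13:73818534-73847631, minus strand) had 30.8 CPM (29.6 to 32.1) in early anagen and 36.0 CPM (34.4 to 37.6) in the bulb, a log2 ratio of 0.23 (0.14 to 0.31). Early-anagen cells thus held 1.11 Nkd1 UMIs for each Nkd2 UMI (1.05 to 1.17), and bulb cells held 13.5 (12.9 to 14.1). The annotation places Gm45496 on the same strand within Nkd1, and reads of that model could not be separated from it.

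Sp5, a transcription factor that represses other WNT target genes, was higher in the bulb. In plain CPM the difference was about as large as that of Axin2 in the other direction. Sp5 (chr2:70474923-70477729, plus strand) had 790 UMIs and 10.4 CPM (9.72 to 11.2) in early anagen, and 1216 UMIs and 21.8 CPM (20.6 to 23.0) in the bulb. The log2 ratio was 1.06 (0.93 to 1.19), 2.09-fold higher, and it was 0.89 when mitochondrial, ribosomal protein and pigmentation genes were taken out of the total. With edgeR's trimmed mean scaling it was 1.37, and relative to the median of all genes it was 1.48. The number of Sp5 UMIs per Axin2 UMI was 0.231 (0.214 to 0.250) in early anagen and 1.02 (0.938 to 1.10) in the bulb. This ratio of 2 genes within a library does not depend on the total. The printed windows of these genes differ as well, with 4 motif cores for Sp5 and none for Axin2, which was not tied to their levels by any measurement here.

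The ubiquitin ligases Znrf3 and Rnf43, which clear Frizzled receptors from the surface, were unequal in both libraries. Znrf3 (chr11:5276324-5444847, minus strand) had 12.9 CPM (12.1 to 13.7) in early anagen and 15.4 CPM (14.3 to 16.4) in the bulb, a log2 ratio of 0.26 (0.12 to 0.39). Over bulb cells its counts followed those of Actb (r = 0.25), whose part in the Znrf3 level was not tested. Rnf43 (chr11:87662722-87735539, plus strand) had 1 UMI in 2785 early-anagen cells and 0 in 3734 bulb cells, which allows a bulb level of up to 0.0537 CPM at 3 counts. In the keratin-dominant early-anagen cells Rnf43 was at 5.45 CPM (3.18 to 8.73), with 17 UMIs in 16 of 81 cells, so the gene was detectable with this chemistry. Znrf3 was at 12.2 CPM in the same cells.

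Of the secreted inhibitors, Sfrp4, a decoy with a Frizzled-like domain that binds WNT proteins, differed most in number of molecules. Sfrp4 (chr13:19623104-19632994, plus strand) had 462 UMIs and 6.10 CPM (5.56 to 6.68) in early anagen, and 30783 UMIs and 551 CPM (545 to 557) in the bulb, rank 318 of all genes by CPM. The log2 ratio was 6.50 (6.36 to 6.63), 90.3-fold higher. Keratin-dominant cells held 0 Sfrp4 UMIs in 81 early-anagen cells, with a median of 34035 UMIs, and 0 in 11 bulb cells, with a median of 10824 UMIs.

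Wif1, which binds WNT proteins outside the cell, was nearly absent from early anagen. Wif1 (chr10:121033960-121100650, plus strand) had 9 UMIs in early anagen, each in a different cell, and 1276 UMIs in 836 bulb cells. The levels were 0.119 CPM (0.0544 to 0.226) and 22.8 CPM (21.6 to 24.1), a log2 ratio of 7.59 (6.66 to 8.72) or 192-fold. Wif1 UMIs were not restricted to melanocytes. In early anagen, keratin-dominant cells held 3.85 CPM, above the level of the McSCs. In the bulb, 2 of 11 keratin-dominant cells held 21 Wif1 UMIs, up to 11 in a cell, and their level was 174 CPM (108 to 267), also above that of the melanocytes. Another 18 bulb cells held Dct with at least 3 keratin UMIs and were left out of the cells read. Wif1 was at 68.2 CPM in them (42.7 to 103). Among the bulb melanocytes, cells with and without Wif1 held 24.5 and 27.4 CPM of epidermal markers at 10000 UMIs per cell. When cells with any Krt10 or Krt14 UMI were left out, the log2 ratio between libraries was 8.47. The part of keratin-holding cells in the Wif1 level was not tested.

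Apcdd1, a membrane glycoprotein that binds WNT and LRP, had 22 UMIs in early anagen, 0.291 CPM (0.182 to 0.440), and 307 UMIs in the bulb, 5.49 CPM (4.90 to 6.14). Apcdd1 lies at chr18:62922231-62961179 on the plus strand. The log2 ratio was 4.24 (3.62 to 4.94), 18.9-fold, and it was 3.12 when each cell was thinned to 5000 UMIs, where early anagen kept 9 UMIs. Early-anagen keratin-dominant cells held 15.1 CPM, above the level of the McSCs. Those of the bulb held 8.30 CPM from 1 UMI (0.210 to 46.3). In the bulb, 142 cells with Apcdd1 and 3146 without it at 10000 UMIs per cell held 20.4 and 27.2 CPM of epidermal markers.

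Notum, an enzyme that removes the lipid from WNT proteins, was rare in both libraries. Notum (chr11:120653788-120661175, minus strand) had 8 UMIs in 7 early-anagen cells, 0.106 CPM, and 54 UMIs in 45 bulb cells, 0.966 CPM (0.726 to 1.26), a log2 ratio of 3.19 (2.11 to 4.48). Here, and to a lesser degree for Axin2 in the bulb, markers of other cells moved with the gene. At 10000 UMIs per cell, the 26 bulb cells with Notum held 227 CPM of the 8 epidermal markers, against 25.3 CPM in the 3262 cells without it. Hair matrix and shaft markers were at 119 and 9.66 CPM, of which Msx2 made up 61.5 and 3.62 CPM. Their part in the Notum level was not tested. Of the 11 bulb keratin-dominant cells, 3 held Notum, at 24.9 CPM (5.14 to 72.8). The bulb melanocytes with Notum held 58254 CPM of melanocyte markers, against 66958 CPM.

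Depth differed between the libraries, so detection per cell was read after each cell had been thinned at random to 5000 UMIs. Nkd1 was detected in 14.0% of early-anagen cells (12.7 to 15.3) and 86.9% of bulb cells (85.7 to 87.9). Sfrp4 was detected in 2.66% (2.09 to 3.32) and 79.1% (77.7 to 80.4). Both genes were thus found in a minority of early-anagen cells and in most bulb cells, so their bulb level did not rest on a small group of cells. Without thinning, Nkd1 was detected in 44.8% and 98.4% of cells, and Sfrp4 in 10.7% and 93.7%. Among keratin-dominant cells, 6.17% in early anagen and 2 of 11 in the bulb held Nkd1.

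Axin2 was detected in 19.3% of early-anagen cells (17.9 to 20.8) and 10.3% of bulb cells (9.35 to 11.3) at 5000 UMIs, and in 57.5% and 27.0% of cells without thinning. Sp5 showed the reverse, with 4.24% (3.52 to 5.05) in early anagen and 10.1% (9.15 to 11.1) in the bulb, or 17.5% and 24.7% without thinning. Nkd2, with 12.3% and 13.7%, and Znrf3, with 6.79% and 7.31%, had overlapping intervals in the 2 libraries. Without thinning, Nkd2 was detected in 45.0% and 32.9% of cells and Znrf3 in 28.3% and 19.2%, an order that follows depth and is not read.

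The rarer members stayed in a minority of bulb cells. Wif1 was detected in 9.29% of bulb cells (8.38 to 10.3) at 5000 UMIs, Apcdd1 in 2.54% (2.06 to 3.10) and Notum in 0.536% (0.327 to 0.826). In early anagen their shares were 0.0718%, 0.251% and 0.0718%. Without thinning, the shares in the bulb were 22.4%, 6.16% and 1.21%, and in early anagen 0.323%, 0.539% and 0.251%. Rnf43 was found in 0 of 3734 bulb cells, which allows a share of up to 0.0803%.

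**Figure D2:**
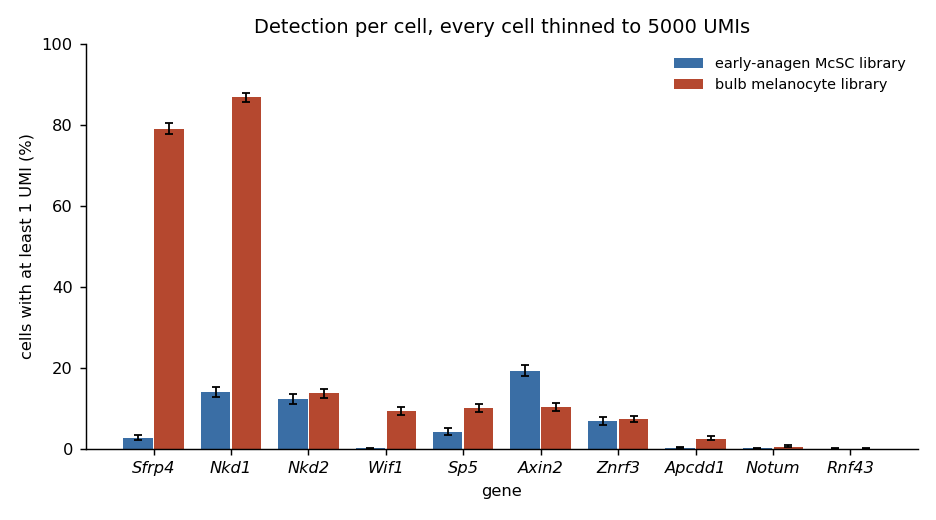
Share of cells with at least 1 UMI of each gene after thinning every cell to 5000 UMIs, with exact 95% binomial intervals, for 2785 early-anagen cells (blue) and 3734 bulb cells (red). Nkd1 and Sfrp4 stand at 86.9% and 79.1% in the bulb, while no other bar passes 19.3%.

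The number of different members found in a cell followed the same 2 genes. At 5000 UMIs, at least 1 member was detected in 45.6% of early-anagen cells (43.8 to 47.5) and 98.4% of bulb cells (97.9 to 98.7). At least 2 were detected in 11.8% (10.6 to 13.1) and 81.4% (80.2 to 82.7), and at least 3 in 2.08% and 31.7%. Leaving out Nkd1 and Sfrp4, at least 2 of the other 8 were detected in 5.96% (5.11 to 6.91) of early-anagen cells and 10.0% (9.07 to 11.0) of bulb cells. The most members found in a single cell at this depth was 4 in early anagen and 6 in the bulb.

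Within the bulb library Nkd1 was spread more evenly than Sfrp4. At 10000 UMIs per cell, a depth that 3288 bulb cells reached and 446 did not, Nkd1 had a median of 4 UMIs, with 1 at the 10th percentile, 9 at the 90th and a maximum of 19. Sfrp4 had the same median and 10th percentile, 12 UMIs at the 90th and a maximum of 45. The excess variance, the squared coefficient of variation beyond that of counting alone, was 0.196 for Nkd1 and 0.651 for Sfrp4, beside a median of 0.0872 over 7657 genes. Both genes were found in 88.1% of bulb cells at this depth (87.0 to 89.2), Nkd1 alone in 8.52%, Sfrp4 alone in 2.71% and neither in 0.639%.

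Among the other members the spread varied. Wif1 had an excess variance of 2.81 in the bulb, with up to 6 UMIs in a cell, and 4.29% of cells held at least 2 Wif1 UMIs. Nkd2 had 1.35, Sp5 1.03, Znrf3 0.632 and Axin2 0.0988. In early anagen the order was different. Sp5 had 4.89, Nkd1 1.22, Axin2 0.684, Znrf3 0.539 and Nkd2 0.531, beside a median of 0.253 over 8260 genes. Sp5 was found in 7.22% of early-anagen cells at this depth, with up to 5 UMIs in a cell.

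**Figure D3:**
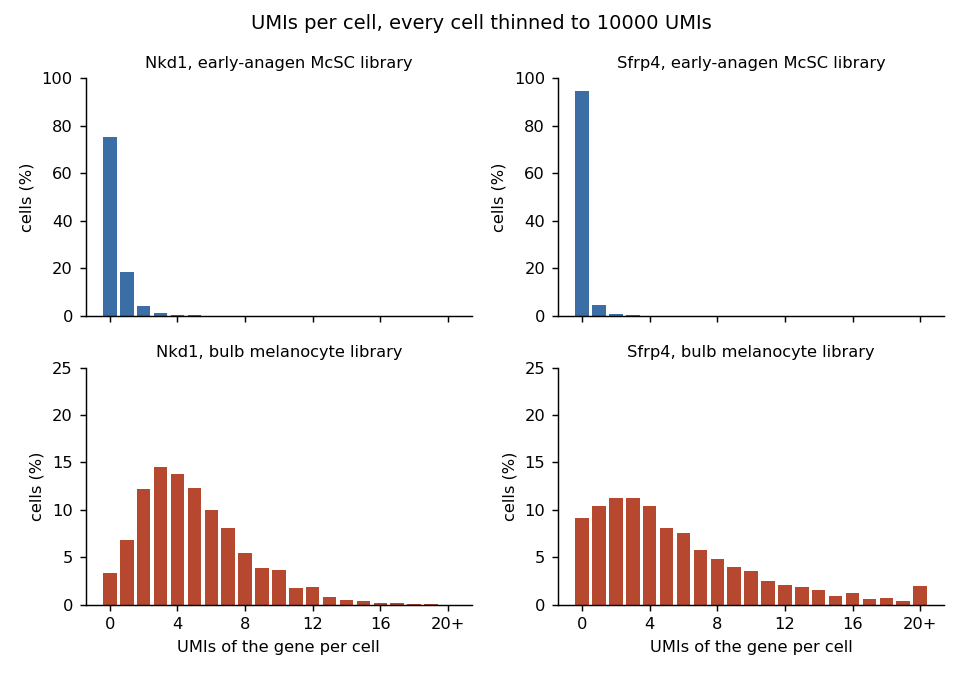
Share of cells by number of Nkd1 (left) and Sfrp4 (right) UMIs after thinning to 10000 UMIs, in 2785 early-anagen cells (top, axis to 100%) and 3288 bulb cells (bottom, axis to 25%), with 20 or more UMIs in the last bar. Most early-anagen cells hold none, the bulb cells spread around a median of 4 for both genes, and Sfrp4 has the longer tail.

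Whether the genes were found in the same cells was read at 10000 UMIs as the number of cells with both, divided by the number that independent detection would give. In early anagen 15 of 45 pairs had at least 5 cells predicted. Their ratios ran from 0.80 to 1.42 with a median of 1.07, and 13 were above 1. Pairs of other genes were not read in either library, so no direction is drawn from the number above 1. The highest were Nkd1 with Sp5, in 70 cells where 49.4 were predicted, and Nkd1 with Sfrp4, in 49 cells where 35.1 were predicted, a ratio of 1.40. Cells with Sp5 held a mean of 0.552 Nkd1 UMIs and cells without it 0.316. Axin2 and Nkd1 were together in 232 cells where 218 were predicted, a ratio of 1.07. The correlations of log2(UMI + 1) over cells ran from −0.01 to 0.10.

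In the bulb 31 pairs were read, with ratios from 0.83 to 1.92, 17 above 1 and 14 below. The highest was Wif1 with Apcdd1, found together in 46 cells where 24.0 were predicted. Wif1 was detected in 32.4% of the cells with Apcdd1 and in 16.2% of those without. Cells with Apcdd1 also held more Nkd1, a mean of 6.54 UMIs against 4.92, and cells with Wif1 a mean of 5.74 against 4.83. The lowest ratio was that of Nkd2 with Wif1, in 111 cells where 133 were predicted. Nkd1 and Sfrp4, the most abundant pair, had a correlation of −0.12, and cells without Sfrp4 held a mean of 5.35 Nkd1 UMIs against 4.95 in cells with it. The 301 bulb cells without Sfrp4 held 105 CPM of epidermal markers, against 19.0 CPM in the 2987 cells with it. Hair matrix and shaft markers were at 46.2 and 6.93 CPM, and melanocyte markers at 58859 and 67698 CPM. Their part in the Nkd1 and Sfrp4 counts was not tested. Correlations over the bulb pairs ran from −0.12 to 0.12. All cells of a library share its preparation, so these are descriptions of 1 library each.

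**Figure D4:**
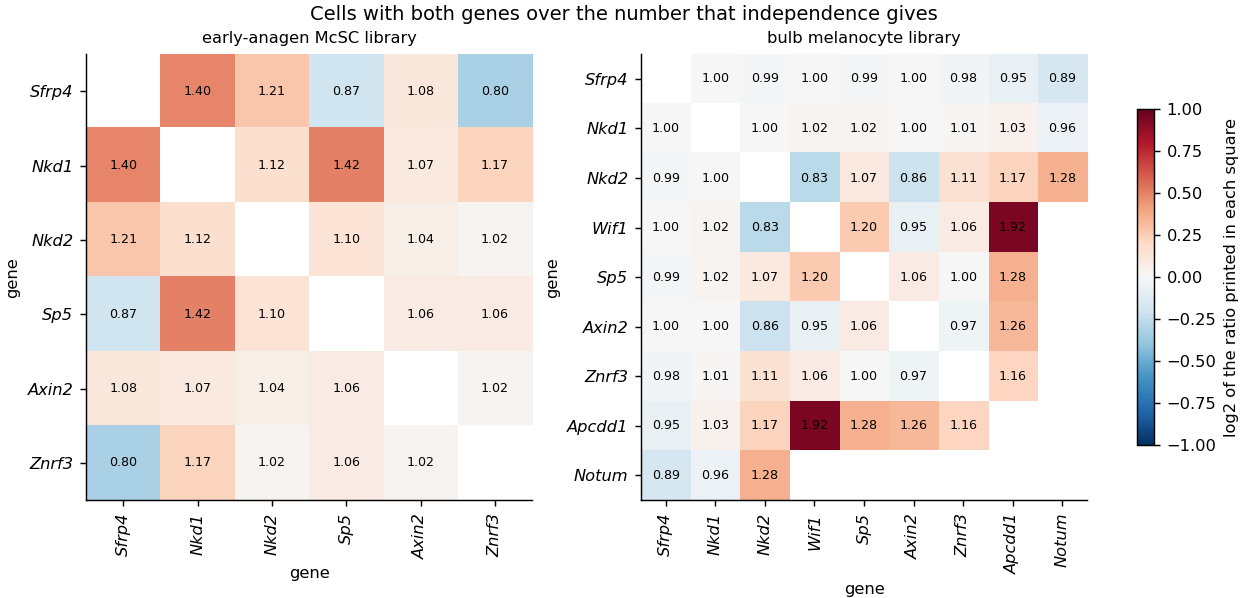
Ratio of the number of cells with both genes to the number that independent detection gives, at 10000 UMIs per cell, for pairs with at least 5 cells predicted, in early anagen (left) and the bulb (right). The colour is the log2 of the printed ratio, red above 1 and blue below, and the strongest square is Wif1 with Apcdd1 in the bulb, at 1.92.

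McSCs in early anagen vary in how far they express pigmentation genes, and the members were set against that within each library. Cells were ordered by the mean log2(UMI + 1) of 13 pigmentation genes, none of which is a member. In early anagen, 928 cells at the top and 928 at the bottom of the order were compared at 10000 UMIs per cell. Of 6 members with at least 30 UMIs, 3 were at least 2-fold higher in the more pigmented cells, where 3.51% of 10897 genes were, and none was 2-fold lower, where 4.16% were. Sfrp4 was at 12.0 and 1.72 CPM, a log2 ratio of 2.79 (2.03 to 3.65). With 111 UMIs in the top and 16 in the bottom cells, Sfrp4 reached the limit through the more pigmented cells. No direction is therefore read from its place in this count. Sp5 was at 15.3 and 3.88 CPM, a log2 ratio of 1.98 (1.44 to 2.55), and Nkd1 at 55.4 and 18.3 CPM, a log2 ratio of 1.60 (1.34 to 1.86).

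Axin2 had a smaller difference, 53.7 against 33.8 CPM, a log2 ratio of 0.67 (0.46 to 0.87). Znrf3, at 14.7 and 12.6 CPM, had an interval that included 0 (−0.15 to 0.59), and it was −0.16 in cells without any Krt10 or Krt14 UMI. Nkd2 was slightly lower in the more pigmented cells, 25.9 against 31.1 CPM, a log2 ratio of −0.27 (−0.52 to −0.02). The order of the members by this ratio thus placed Sfrp4 and Nkd1 with Sp5, and Nkd2 apart from its paralogue. Median depth before thinning was 25694.5 UMIs in the top cells and 22862 in the bottom cells. Krt10 was at 15.0 and 10.8 CPM and Krt14 at 2.69 and 5.28 CPM.

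Over 5 equal steps of the order, 557 cells each, Sfrp4 went from 1.80 CPM (0.861 to 3.30) in the lowest to 16.0 CPM (12.8 to 19.7) in the highest. Nkd1 went from 15.8 CPM (12.7 to 19.5) to 66.6 CPM (60.0 to 73.7) and Sp5 from 2.69 CPM (1.51 to 4.44) to 18.3 CPM (14.9 to 22.2). The intervals of neighbouring steps often overlapped. For Sfrp4 the values between were 2.33, 4.31 and 5.39 CPM, so the clearest step was the last. In that highest step Nkd1 was detected in 43.6% of cells and Sfrp4 in 13.3%, still below the 96.7% and 90.8% of all bulb cells at the same depth.

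In the bulb the same comparison, 1096 against 1096 cells, showed little. None of 8 members with at least 30 UMIs was 2-fold higher, where 0.348% of 10052 genes were, or 2-fold lower, where 3.56% were. Sfrp4 was at 569 and 517 CPM, a log2 ratio of 0.14 (0.09 to 0.19), and Nkd1 at 480 and 506 CPM, a log2 ratio of −0.08 (−0.13 to −0.02). The log2 ratios of the other 6 lay between −0.25 and 0.10. The lowest step of the bulb order, with a median score of 3.82, lay above the highest step of early anagen, with 3.01, so the libraries cover different ranges of the score. The range was also narrower in the bulb, with medians from 3.82 to 4.50, against 1.44 to 3.01 in early anagen. Mlana was at 21656 CPM in the top and 18989 CPM in the bottom bulb cells, and at 8561 and 2912 CPM in early anagen. Oca2 was at 790 and 310 CPM in the bulb, and at 69.1 and 0.539 CPM in early anagen. In 148 bulb cells without an Oca2 UMI, Sfrp4 was at 319 CPM against 567 CPM in 3140 cells with Oca2, while Nkd1 was at 547 and 496 CPM. Nkd1 was nevertheless detected in fewer of the cells without Oca2, 85.1% against 97.2%, and Mlana in 95.3% against 100%.

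**Figure D5:**
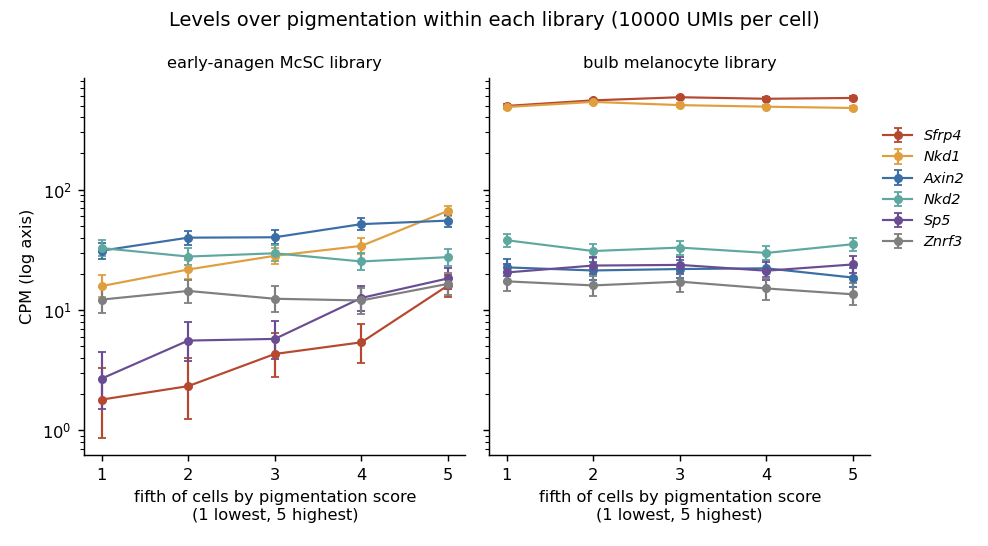
Level of 6 members, in CPM on a log axis with exact 95% Poisson intervals, over 5 equal steps of the pigmentation score in early anagen (left, 557 cells a step) and the bulb (right, 657 or 658 cells a step), at 10000 UMIs per cell. Sfrp4, Sp5 and Nkd1 climb across the early-anagen steps while Nkd2 and Znrf3 stay near their starting level, and all 6 lines run flat in the bulb.

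The cell cycle was read from Mki67 and Top2a, which mark dividing cells. In early anagen 993 cells held a UMI of either at 10000 UMIs, and 1792 held neither. None of 6 members was 2-fold higher in the former, where 5.03% of 11421 genes were, or 2-fold lower, where 2.01% were. Sp5 was at 10.7 CPM in cells with these transcripts and 8.04 CPM in cells without (log2 ratio 0.41, 0.03 to 0.78), and Sfrp4 at 4.53 and 6.75 CPM (log2 ratio −0.58, −1.10 to −0.07). The intervals of Axin2, Nkd1, Nkd2 and Znrf3 included 0. In the bulb 69 cells held Mki67 or Top2a, too few to read the rarer members. Nkd1 was at 414 CPM in them and 500 CPM in the rest, and Sfrp4 at 546 and 556 CPM.

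The genes whose counts followed each member most closely over the cells of a library were named as a description. In both libraries the list for Nkd1 began with Npy, a neuropeptide, with r = 0.29 in early anagen and 0.33 in the bulb. It also held Trpm1, a melanocyte ion channel that is part of the pigmentation score, with 0.29 and 0.28, and Ednrb, the endothelin receptor of melanocytes, with 0.24 and 0.29. Sfrp4 in the bulb was closest to Epdr1 (r = 0.29), then Gng11, Gsn and Dct (0.25 each). For Sp5 in early anagen the highest was Id3, a target of BMP signalling, at 0.20. For Axin2 in early anagen no r passed 0.15, with Ednrb and Trpm1 first, and in the bulb none passed 0.07. For Nkd2 none passed 0.11 in early anagen or 0.13 in the bulb. These values are over 2785 and 3288 cells at 10000 UMIs.

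Other genes of the pathway were read from lists of genes by role, as counts of those with at least 30 UMIs over both libraries. Of 7 such genes for WNT ligands and their secretion, 4 were at least 2-fold higher in the bulb, where 14.9% of all genes were, and none lower. Wnt2, Wnt3 and Wnt9a reached the limit through their bulb UMIs, while Wnt5a, with 19 and 2 UMIs, and Wnt6, with 24 and 3, stayed under it, so no direction is read from this count. Wnt2 had 0 UMIs in early anagen and 1363 in the bulb, at least 616-fold higher at a floor of 3 counts over the group. Wnt4 was at 8.73 and 69.2 CPM, and Wls, the carrier that WNT proteins need for secretion, at 117 and 215 CPM.

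Receptors, the signal relay and nuclear genes were counted in the same way. Of 13 genes for receptors and the R-spondin axis, 7 were at least 2-fold lower in the bulb and 1 higher, Fzd6, at 1.81 and 4.99 CPM. Of 12 genes of the cytoplasmic relay 7 were lower and none higher, among them Ctnnb1, which encodes β-catenin, at 569 and 216 CPM. Of 12 nuclear genes 4 were lower and 1 higher. Lef1 was at 17.9 CPM in early anagen and 77.0 CPM in the bulb, and Tcf7l2 at 26.3 and 1.36 CPM. These counts stand against the 35.8% of all genes that were at least 2-fold lower and the 14.9% that were higher. Fzd2, with 61 and 2 UMIs, Fzd4, with 23 and 8, and Tcf7l1, with 185 and 3, reached the limit largely through early-anagen UMIs. No direction is read from the receptor and nuclear counts.

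Of 5 inhibitors outside the list with enough UMIs, 3 were at least 2-fold lower and 1 was higher in the bulb, where 35.8% and 14.9% of all genes were. Sfrp1, with 72 and 26 UMIs, and Tpbg, with 219 and 14, reached the limit through their early-anagen UMIs, so no direction is read from this count. Dkk3 was at 92.0 CPM in early anagen and 315 CPM in the bulb, and Shisa2, which holds Frizzled receptors inside the cell, at 29.5 and 2.52 CPM. Kremen1, a receptor for Dkk proteins, was at 12.4 and 10.2 CPM. Of 11 other WNT-responsive genes, 4 were higher and 3 lower, beside the same 14.9% and 35.8%, with Tnfrsf19 at 31.5 and 85.6 CPM and Ccnd1 at 59.2 and 18.0 CPM. Msx1, with 14 and 41 UMIs, and Msx2, with 12 and 224, reached the limit through their bulb UMIs. Ephb3, with 38 and 5, reached it through its early-anagen UMIs, so no direction is read from these counts. Msx2 is also one of the hair matrix and shaft markers, and Lef1 and Tcf7 are also among the nuclear genes. Among those with at least 30 UMIs in each library, WNT-responsive genes outside the 10 members lay on both sides.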

How the data were processed

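The data were 2 droplet 3′ single-cell RNA sequencing libraries of GFP-sorted mouse melanocytes, 1 per condition, each combining 4 mice. The deposited values are raw UMI counts for each gene and barcode, which the authors made with Cell Ranger 6.0.1 on mm10. The selected cells held 75718468 UMIs in early anagen and 55883067 in the bulb. UMIs were summed per library and divided by the total (CPM). Ratios carry exact 95% intervals, shares of cells Clopper-Pearson intervals, and a gene at 0 a bound of 3 counts. Cells were thinned to 5000 UMIs for comparison between libraries and to 10000 within them, with a fixed seed. Ratios were read for genes with at least 30 UMIs over both groups. No doublet caller was run, and cells with the most UMIs were left out as an alternative. Cells were not treated as replicates, and no p-value was computed.

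All 10 members are named. Other genes come from pathway, marker and pigmentation lists and from the 5 genes with the highest correlation per member. Pathway genes are examples named by UMIs, role or direction, or for how they stood to the UMI limit. The members and lists were chosen with earlier results of these data known. Positions are from GENCODE vM21 (GRCm38) and promoters from RefSeq (GRCm38.p6). Rnf43 and 1110028F11Rik share a strand and could share reads. Python 3.11.15, scipy 1.17.1 and edgeR 4.0.16 (scaling factors only) were used. The ratios were checked on simulated Poisson counts, the model that their intervals assume. The thinning was checked on bulb cells of these data.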

Additional observations from a re-analysis of the deposited data

Results flagged for a closer look

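The same contrast within the 2 libraries gave opposite signs for some members. Each library is a single sample, so these differences between libraries were not tested. The most and the least pigmented cells also lay closer together in pigmentation score in the bulb than in early anagen. Between the most and the least pigmented cells, the log2 ratio of Nkd1 was 1.60 in early anagen and −0.08 in the bulb. The bulb value lay close to the median over all genes in that comparison, −0.06. The log2 ratio of Axin2 was 0.67 and −0.17, where the bulb interval (−0.44 to 0.11) included 0. That of Znrf3 was 0.22 and −0.25, where both Znrf3 intervals included 0. Between cells with and without Mki67 or Top2a, the log2 ratio of Axin2 was −0.15 in early anagen and 0.66 in the bulb, and that of Sp5 0.41 and −0.05. Both Axin2 intervals (−0.32 to 0.03 and −0.01 to 1.26) and the bulb interval of Sp5 (−0.90 to 0.68) included 0. The bulb values of the latter rest on 69 cells with 23 Axin2 UMIs and 15 Sp5 UMIs.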

How the results depend on the processing

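Of 291 values under alternatives, 250 were marked as the same, 35 as moved and 6 changed sign. Ratios and shares were marked as the same within the counting interval of the reported value. The median was judged by the interval of Notum, which is wide (2.11 to 4.48), and the counts of members by a fixed fold. The alternative limited to members with at least 30 UMIs could not differ, as all 9 members behind the median already had them. The number of members at least 2-fold higher in the bulb stayed between 5 and 6, without Notum at 5000 UMIs per cell, where it had too few UMIs, and without Sp5 (0.89) under the reduced total, and the number at least 2-fold lower was 0 with edgeR's trimmed mean factors, where Axin2 was at −0.76. The median log2 ratio was 2.06 with under 10% mitochondrial UMIs, since Rnf43 then had 1 UMI in each library and entered the median, and 2.89 to 3.54 under the other alternatives. The share of cells with at least 2 members was 29.5% in early anagen and 95.6% in the bulb at 10000 UMIs per cell, 62.0% and 97.6% with all UMIs, and in early anagen 10.5% without any Krt10 or Krt14 UMI. The pigmentation ratio of Znrf3 in early anagen was −0.16 without any Krt10 or Krt14 UMI. In the 69 bulb cells with Mki67 or Top2a, requiring both transcripts gave −0.12 for Axin2, 0.78 for Sp5 and 0.02 for Znrf3, and Apcdd1 was at −0.13 with all UMIs and −0.59 without the 5% of cells with the most UMIs. For these sign changes the cause was not tested. No paired analysis was possible because each group is 1 library and no test was run. Rnf43, Notum, Wif1 and Apcdd1 had 22 UMIs or fewer each in early anagen, so their counting intervals are wide.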

Other observations

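Znrf3 in the bulb was the one member whose leading genes were housekeeping and other genes outside the pathway and pigmentation lists. Its highest correlations over 3288 cells were with Actb (r = 0.25), Bhlhe41 (0.24), Ttyh2 (0.22), Slc39a1 (0.21) and Cbx3 (0.20), all higher than any correlation of Axin2, Nkd2, Sp5 or Wif1 there. In early anagen the same 5 genes had correlations with Znrf3 between −0.01 and 0.03. The 458 bulb cells with Znrf3 held 17.9 CPM of epidermal and 65746 CPM of melanocyte markers, against 28.4 and 67074 CPM in the 2830 cells without it.

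In 596 early-anagen cells that held Dct together with at least 3 keratin UMIs, and were left out of the cells read, Nkd1 was at 31.6 CPM, Axin2 at 28.1 CPM and Sfrp4 at 5.12 CPM. A single one of these cells held 15 of their 19 Wif1 UMIs.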
